A study of Homo sapiens with 132 samples.

Results

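The series counted 65217 gene identifiers, 37040 of which had at least 1 count. The nucleotide synthesis enzymes described here are 9 of the 65217, chosen by name for the reactions they catalyse and with earlier results of these data known. They are CAD and UMPS, TYMS, DTYMK, TK1, DUT and DCTPP1, and the ribonucleotide reductase subunits RRM1 and RRM2. Their messenger RNA was sequenced in 4 gastric cancer lines, NCI-N87, MKN7, MKN1 and Hs746T, each derived from a metastasis. MKN1, MKN7 and NCI-N87 were grown in RPMI and Hs746T in DMEM, both with fetal calf serum. The series holds 44 conditions of 3 libraries each, and the treatments were meant to compare agents against receptors of the HER family.

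In all 4 lines, untreated cells were compared with cells given the HER2 antibody trastuzumab (Tra, 5 µg/ml), the irreversible HER family kinase inhibitor afatinib (Afa, 0.5 µM) or both (Tra+Afa), for 4 h or 24 h. MKN1 and Hs746T were also given epidermal growth factor (EGF, 5 ng/ml), the EGFR antibody cetuximab (Cet, 1 µg/ml) or both (EGF+Cet). Each treatment of a line at a time point was set against the same 3 untreated libraries, which received no solvent. Each line is a single culture model, so differences between lines cannot be told apart from differences in their culture medium or origin. The labels do not say whether the 3 libraries of a condition came from separate cultures, and the general statement on independent experiments in the methods is not tied to the sequencing. The p-values therefore measure the spread between these libraries, which may be technical.

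Cells make pyrimidine nucleotides from small precursors, beginning with the joined enzyme activities of CAD and ending with UMPS, which makes uridine monophosphate. Ribonucleotide reductase, built from the large subunit RRM1 and the small subunit RRM2, turns ribonucleotides into the deoxynucleotides used for DNA. Thymidylate synthase (TYMS) makes thymidine monophosphate and is the target of fluorouracil, thymidine kinase 1 (TK1) makes the same product from salvaged thymidine, and thymidylate kinase (DTYMK) adds the next phosphate. DUT and DCTPP1 hydrolyse dUTP and dCTP-like nucleotides. Most of these genes are known to be transcribed mainly in dividing cells around S phase.

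Library totals ran from 25832557 to 69434151 counts, with a median of 50725775, and the 9 genes together took 0.0423% to 0.16% of them. A floor of 3 counts corresponded to 0.0432 to 0.116 CPM (counts scaled to the library's total), and it covers counting error only. Levels below are CPM scaled by the trimmed mean of M-values (TMM) method. A gene passed the test at a Benjamini-Hochberg adjusted p below 0.05 over all genes tested in that line, and was called regulated when its log2 fold change (log2FC) was also past 1 in either direction. Statements that groups did or did not overlap only describe the libraries. The share of all genes without overlap was not counted. Full separation of 3 libraries from 3 has p = 0.1 in a two-sided exact permutation test. All comparisons are of RNA from bulk cultures, in which fewer dividing cells and less RNA per cell cannot be told apart. The epithelial markers EPCAM, CDH1, KRT8, KRT18 and KRT19 summed to 438 to 738 CPM in Hs746T libraries, against 4310 or more in every library of the other lines. The keratins carried this sum, since EPCAM (median 25.1 CPM) and CDH1 (2 CPM) were about as low in MKN1 as in Hs746T (35.5 and 0.785 CPM). Mesenchymal markers summed to 3080 to 5510 CPM in Hs746T, 595 to 2540 in MKN1, 373 to 707 in MKN7 and 88.3 to 375 in NCI-N87. VIM had a median of 559 CPM in MKN1, but of 3.74 in MKN7 and 4.17 in NCI-N87, where FN1 carried the sum. Fibroblast markers summed to at most 41.5 CPM in the other lines and to 485 to 892 CPM in Hs746T. COL1A1 and COL1A2 carried the fibroblast sum, since PDGFRB (median 3.3 CPM) and DCN (0.107 CPM) were low there. Endothelial markers summed to 80 to 275 CPM in Hs746T and to at most 27.7 CPM in the other lines. PECAM1 (median 155 CPM) and not VWF (0.333 CPM) made up that sum in Hs746T. Leukocyte markers summed to at most 0.684 CPM in all libraries. Among them CD68 was listed at 0 counts in every library, so this sum rests on PTPRC and CD3E. The gastric markers TFF1, MUC5AC, CLDN18 and GKN1 summed to at most 14.6 CPM in MKN1, MKN7 and Hs746T libraries and to 9.86 to 224 CPM in NCI-N87, where MUC5AC had a median of 105 CPM.

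8 of the 9 genes had counts in every library. DCTPP1 (ENSG00000179958, hg38 chr16:30423619-30430075, minus strand) was listed at 0 counts in each of them, and so was EIF4A1, a translation factor gene that every growing cell uses. Of the exon bases of DCTPP1, 42.1% are shared with ZNF771 on the other strand, and ZNF771 had 295 to 1591 counts. Among protein-coding genes whose exon bases were all shared with another gene, 66 of 245 were at 0 in every library (26.9%), against 940 of 11333 (8.29%) of those that shared none. DCTPP1 belongs to neither class, and TYMS, which shares 46.6% of its exon bases, had 983 to 6047 counts. The 0 is given as listed, no expression level of DCTPP1 is stated, and whether the counting step removed its reads was not tested.

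The other 8 lie at separate places in the genome. TYMS (ENSG00000176890) is at chr18:657604-673578 on the plus strand, DUT (ENSG00000128951) at chr15:48331011-48343373 on the plus strand, UMPS (ENSG00000114491) at chr3:124730366-124749273 on the plus strand and RRM1 (ENSG00000167325) at chr11:4094707-4138876 on the plus strand. TK1 (ENSG00000167900) is at chr17:78174075-78187233 on the minus strand. Chromosome 2 holds RRM2 (ENSG00000171848, chr2:10120698-10131419, plus strand), CAD (ENSG00000084774, chr2:27217390-27243943, plus strand) and DTYMK (ENSG00000168393, chr2:241675742-241686991, minus strand), far from each other. TYMS shares 46.6% of its exon bases with ENOSF1 and TYMSOS on the other strand, and DUT shares 14.5% with an antisense gene, so that reads of these partners could be counted with them if the counting ignored strand, which is not given in the sources used here. The kit marked strand. Annotated processed pseudogenes named after TYMS, RRM2 and DUT held at most 7 counts in any library.

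To show what the genes that moved together in afatinib-treated cells have in front of them, the 250 bases before each RefSeq transcript start (GRCh38.p14) were searched on both strands. All 9 genes were matched. The CCAAT box (CCAAT) was found before 5 of the 9 (CAD, DTYMK, RRM1, RRM2 and TK1), and is present before 37.0% of the 27305 genes in the table. A gene was counted when any of its starts had a match, and DUT has 4 starts and RRM2 and TK1 have 2 each. An E2F-type site (TTTCCCGC, TTTCGCGC, TTTGCCGC or TTTGGCGC) was found before TYMS and DUT, against 3.4% of all genes, and the CHR letters TTTGAA or TTCGAA before DTYMK, DUT, RRM1 and UMPS, against 17.2%. The GC box GGGCGG was found before 7 of the 9 (46.2% of all genes), and the E-box CACGTG before DCTPP1 alone (7.73%). A match is a description of letters, not of a bound site. The 30-base stretches that hold the E2F-type or CCAAT letters within 150 bases of a start are printed 5′ to 3′ on the gene's own strand, with the matched letters in capitals (ATTGG is CCAAT read from the other strand).
TYMS, chr18:657603-657632, plus strand: gcgggacggccGCGGGAAAaggcgcgcgga
DUT, chr15:48332152-48332181, plus strand: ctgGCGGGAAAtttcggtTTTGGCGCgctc
RRM1, chr11:4094645-4094674, plus strand: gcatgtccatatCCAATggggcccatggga
RRM2, chr2:10122604-10122633, plus strand: ggcaaggcgcagCCAATgggaagggtcgga
RRM2, chr2:10122634-10122663, plus strand: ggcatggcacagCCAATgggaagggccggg
RRM2, chr2:10122661-10122690, plus strand: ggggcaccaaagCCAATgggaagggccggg
TK1, chr17:78187112-78187141, minus strand: ggccgggcgctgATTGGccccatggcggcg
TK1, chr17:78187081-78187110, minus strand: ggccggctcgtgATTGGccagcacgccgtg
DTYMK, chr2:241686890-241686919, minus strand: ccccggccccggCCAATcccttcgaatttg
DTYMK, chr2:241686822-241686851, minus strand: tgttgacgccggCCAATgggagctccggaa
RRM2 had 3 such boxes in front of the same start, and TK1 and DTYMK had 2 each. The TYMS and DUT stretches share the run GCGGGAAA.

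In untreated cells the lines differed in most of these genes, but not detectably in RRM2 over both times together. Its level was 352 ± 28.3 CPM in Hs746T, 351 ± 39.5 in NCI-N87, 342 ± 79.3 in MKN1 and 341 ± 36.5 in MKN7 (mean ± SD, n = 6 libraries, both time points). None of the 6 pairs of lines passed for RRM2 in edgeR's quasi-likelihood test, none had an unadjusted p below 0.05, and DESeq2 called none. The differences lay between -0.07 and 0.06 on the log2 scale. These values average the times. At 4 h MKN1 was at 409 CPM and the other lines at 362 to 373 CPM, and at 24 h MKN1 was at 276 CPM and the others at 319 to 340 CPM, and the lines were not tested within a time. RRM1, its partner subunit, did differ between all lines. Its level was 340 ± 17 CPM in MKN7, 228 ± 23 in MKN1, 175 ± 32.2 in Hs746T and 112 ± 12.2 in NCI-N87, each step of this order passing the test. NCI-N87 was 1.6 lower than MKN7 on the log2 scale (adjusted p = 2.15e-24). The step between MKN1 and Hs746T (log2 difference 0.37, adjusted p = 0.00171) was lost without replicate 2 (0.34, adjusted p = 0.0501) or without replicate 3 (0.30, adjusted p = 0.0677).

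Among the thymidine branch genes, TYMS and DTYMK were highest in MKN7. TYMS was at 101 ± 6.02 CPM there, and at 50.9 ± 7.28 in MKN1, 48 ± 5.77 in Hs746T and 46.8 ± 2.7 in NCI-N87. The last 3 lines did not pass against each other in edgeR's quasi-likelihood test, whereas DESeq2 called NCI-N87 against MKN1. DTYMK was at 169 ± 15.9 CPM in MKN7, 107 ± 13.9 in NCI-N87, 84.1 ± 7.58 in MKN1 and 78.7 ± 11 in Hs746T, and the last 2 did not pass (adjusted p = 0.424). Without replicate 3, DTYMK in NCI-N87 no longer passed against MKN1 (0.16, adjusted p = 0.33) or Hs746T (0.29, adjusted p = 0.0675). TK1, the salvage enzyme, had a different order. It was highest in Hs746T at 390 ± 49.9 CPM, followed by MKN7 at 228 ± 19.9 and NCI-N87 at 222 ± 28.8, which did not differ (adjusted p = 0.801), and lowest in MKN1 at 126 ± 12.4.

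The dUTPase gene DUT fell into 2 levels. It was at 138 ± 5.92 CPM in Hs746T and 137 ± 20.9 in NCI-N87, and at 52.6 ± 6.82 in MKN7 and 52.5 ± 2.8 in MKN1, with 1.39 between the levels on the log2 scale and no difference within them (adjusted p = 0.997 and 1.0). UMPS was highest in NCI-N87 at 121 ± 7.84 CPM and lowest in Hs746T at 70.9 ± 2.26. MKN1 (91.1 ± 13.6) and MKN7 (80.3 ± 7.46) lay between them. MKN7 against MKN1 was lost without replicate 2 (-0.17, adjusted p = 0.0802). MKN7 against Hs746T was lost without replicate 1 (0.15, adjusted p = 0.079), replicate 2 (0.17, adjusted p = 0.0676) or replicate 3 (0.17, adjusted p = 0.0511). CAD was highest in MKN7 at 297 ± 21.7 CPM, alike in NCI-N87 (199 ± 12.9) and Hs746T (195 ± 30) within their spread, and lowest in MKN1 at 122 ± 9.7. Over the 8 genes and 6 pairs of lines, 34 of 48 tests passed, which is near the 74.6% of all genes that passed over the same pairs.

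**Figure D1:**
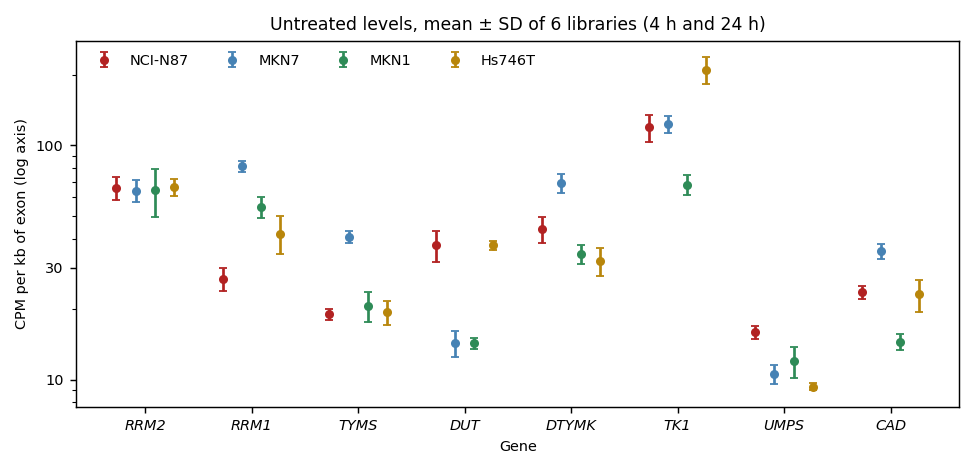
Mean level ± SD of the 8 counted genes in the 6 untreated libraries of each line, in TMM-normalised CPM per kilobase of exon on a log axis. RRM2 has nearly the same mean over both times in all lines (64 to 66.1 CPM per kb), RRM1 runs from 81.3 in MKN7 down to 26.9 in NCI-N87, and DUT falls into a pair of high lines and a pair of low lines.

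Per kilobase of annotated exon, TK1 had the highest level of the 8 in each line (67.9 to 210 CPM per kb) and UMPS the lowest (9.35 to 16 CPM per kb). With the longest transcript as the length, UMPS was still the lowest, but RRM2 came first in MKN1 and DTYMK in MKN7.

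Replicate 1 of Hs746T stood apart in these genes. RRM1 was above both other replicates in 14 of 14 conditions, on average by 0.52 on the log2 scale over the mean of the other 2, CAD was below both in 14 of 14 (mean -0.31), and DTYMK was above both in 12 (mean 0.29). TYMS was above both in 13 (mean 0.23), TK1 below both in 13 (mean -0.40) and RRM2 below both in 12 (mean -0.12). In NCI-N87, replicate 3 was the highest of its condition in 8 of 8 for DUT (mean 0.39), DTYMK (mean 0.3), RRM2 (mean 0.29), UMPS (mean 0.22) and TYMS (mean 0.17), and in 7 for RRM1. These shifts recur under the same number in all or most conditions, and fits with the replicate number as a block are given where they changed a call.

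Afatinib for 24 h lowered all 8 counted genes in NCI-N87, most of all the small subunit of ribonucleotide reductase. RRM2 was at 288, 352 and 379 CPM in untreated replicates 1, 2 and 3, and at 25.4, 30 and 37.7 CPM with afatinib. The lowest untreated library was thus several-fold above the highest treated one. This was an 11.2-fold lower level (log2FC -3.49 ± 0.16 SE, adjusted p = 1.4e-13, n = 3). RRM1 went from 97.3, 97 and 117 CPM to 27.8, 31.1 and 35.9 CPM, and was 3.36-fold lower (log2FC -1.75 ± 0.1, adjusted p = 3.44e-12). Its groups did not overlap either.

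The pyrimidine synthesis genes fell to well under their untreated levels. CAD went from 193, 214 and 213 CPM to 71, 75.3 and 80.4 CPM (log2FC -1.48 ± 0.07, adjusted p = 1.83e-13). UMPS went from 124, 114 and 129 CPM to 46.9, 46.7 and 59.5 CPM (log2FC -1.29 ± 0.12, adjusted p = 3.54e-09). For both genes every treated library lay below every untreated one.

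In the thymidine branch, TK1 went from 224, 199 and 240 CPM to 80.6, 79.5 and 106 CPM (log2FC -1.35 ± 0.17, adjusted p = 3.63e-07). DTYMK went from 102, 97.6 and 119 CPM to 38, 40.5 and 49.9 CPM (log2FC -1.34 ± 0.14, adjusted p = 4.31e-08). TYMS had the smallest change of the 8, from 44.8, 44.3 and 49.5 CPM to 20.7, 21.1 and 23.7 CPM (log2FC -1.11 ± 0.1, adjusted p = 2.63e-09), and was still 2.16-fold lower. ENOSF1, which overlaps TYMS on the other strand, stood at 58.5 ± 2.22 CPM untreated and 47.3 ± 2.56 CPM with afatinib. DUT, the enzyme that removes dUTP, went from 132.3, 125.3 and 144.3 CPM to 52.6, 50.4 and 66.7 CPM (log2FC -1.28 ± 0.19, adjusted p = 6.12e-06). None of these groups overlapped.

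In this comparison 31.0% of all 19078 genes tested were lower and 11.5% were regulated lower, against 8 of 8 for both among the nucleotide synthesis genes. The genes were chosen with earlier results of these data known, so these shares are a description and not an independent test. Their median log2FC was -1.35, against 0.03 for all genes. All 8 stayed lower at an adjusted p below 0.05 in every alternative fit and without each replicate. The regulated threshold was not followed in those fits. Of the called genes 49.6% were lower, and 34.1% with scaling by library size alone, which moved the median of all genes by 0.26.

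**Figure D2:**
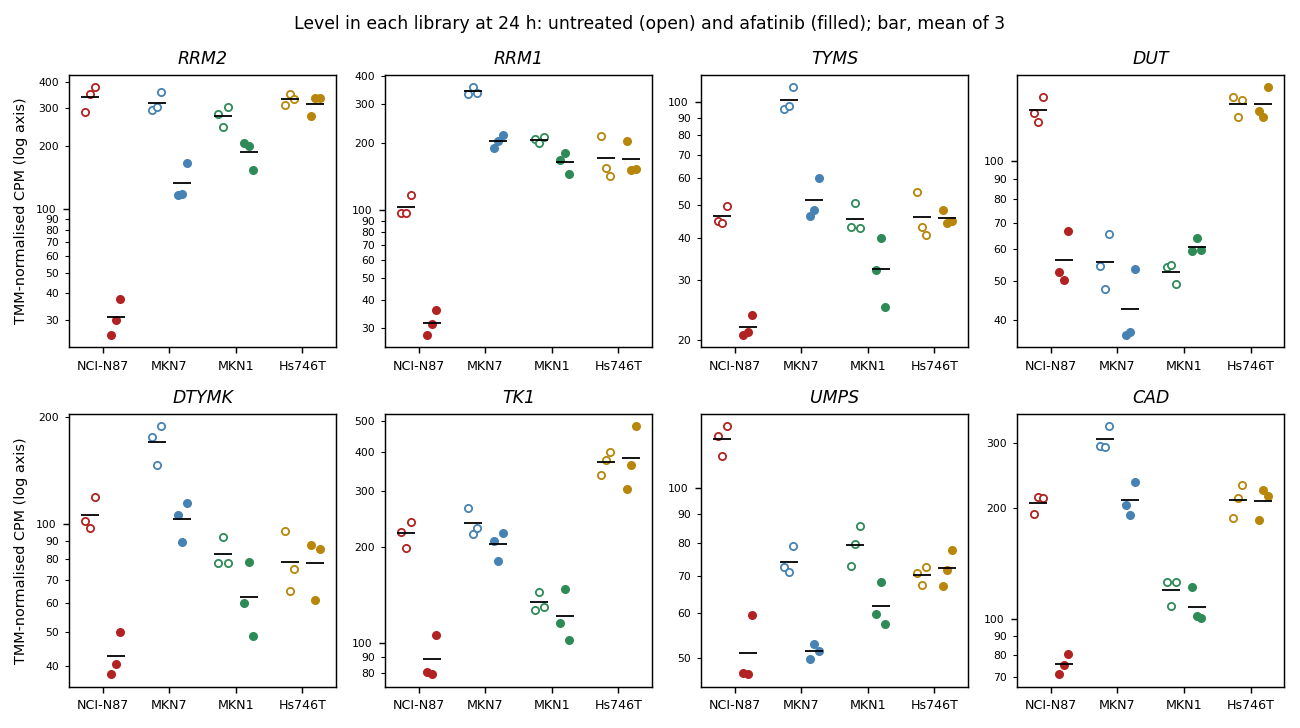
Level of the 8 counted genes in each untreated (open) and afatinib (filled) library at 24 h, in TMM-normalised CPM on a log axis, 1 panel per gene, with a bar at the mean of 3. In NCI-N87 the afatinib points lie below the untreated points for every gene (RRM2 from 288 to 379 CPM down to 25.4 to 37.7 CPM), while in Hs746T the groups overlap.

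MKN7 showed the same genes lower after 24 h of afatinib by smaller amounts, with RRM2 alone past the regulated threshold. RRM2 was at 295, 303 and 360 CPM untreated and at 117, 118 and 165 CPM with afatinib, a 2.4-fold lower level (log2FC -1.26 ± 0.14, adjusted p = 3.01e-07). RRM1 went from 332, 356 and 336 CPM to 190, 204 and 218 CPM (log2FC -0.75 ± 0.08, adjusted p = 1.46e-07). For both subunits all treated libraries were below all untreated ones.

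TYMS went from 95.9, 97.7 and 111 CPM to 46.3, 48.3 and 59.8 CPM (log2FC -0.98 ± 0.1, adjusted p = 1.26e-07), while ENOSF1 stood at 98.8 ± 8.14 and 101 ± 6.38 CPM. DTYMK went from 175, 146 and 188 CPM to 106, 89.3 and 115 CPM (log2FC -0.72 ± 0.12, adjusted p = 2.39e-05). The groups were again separate for these thymidylate genes. CAD went from 294, 293 and 333 CPM to 204, 192 and 235 CPM (log2FC -0.55 ± 0.09, adjusted p = 3.89e-05), and UMPS from 72.4, 71 and 79 CPM to 49.8, 52.8 and 51.3 CPM (log2FC -0.54 ± 0.07, adjusted p = 2.38e-06), both without overlap.

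DUT and TK1 were the weakest in MKN7. DUT was at 54.5, 47.7 and 65.5 CPM untreated and at 36.6, 37.3 and 53.5 CPM with afatinib (log2FC -0.40 ± 0.15, adjusted p = 0.0338). TK1 was at 266, 220 and 230 CPM untreated and at 209, 181 and 222 CPM with afatinib (log2FC -0.23 ± 0.1, adjusted p = 0.047). The groups overlapped for both genes. Neither passed without replicate 1 (DUT -0.35, adjusted p = 0.228, and TK1 -0.18, adjusted p = 0.262) or without replicate 2 (DUT -0.42, adjusted p = 0.0974, and TK1 -0.20, adjusted p = 0.104). Of all 18483 genes tested 24.9% were lower and 3.24% regulated lower, and the median log2FC of the 8 genes was -0.64, against 0.04 for all genes. Lower genes were 48.4% of the called genes, and 35.7% with scaling by library size alone, which moved the median of all genes by 0.11.

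In MKN1 5 of the 8 genes were lower after 24 h of afatinib, none of them regulated. RRM2 was at 281, 244 and 304 CPM untreated and at 206, 200 and 153 CPM with afatinib (log2FC -0.59 ± 0.12, adjusted p = 0.000639). RRM1 went from 209, 200 and 213 CPM to 168, 181 and 145 CPM (log2FC -0.35 ± 0.07, adjusted p = 0.000573). UMPS went from 72.7, 79.8 and 85.7 CPM to 59.7, 68.2 and 57.4 CPM (log2FC -0.38 ± 0.08, adjusted p = 0.000369). Groups did not overlap for these 3 genes.

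TYMS went from 43.1, 50.6 and 42.8 CPM to 32.1, 40 and 25.1 CPM (log2FC -0.51 ± 0.13, adjusted p = 0.00378). DTYMK, at 78.1, 92.1 and 77.7 CPM untreated and 60.3, 78.4 and 48.7 CPM with afatinib, passed although its groups overlapped (log2FC -0.42 ± 0.13, adjusted p = 0.0157). CAD (log2FC -0.16) and TK1 (log2FC -0.16) did not pass. DUT was the exception in sign, at 54.1, 54.9 and 49 CPM untreated and 59.3, 63.9 and 59.7 CPM with afatinib (log2FC 0.19, adjusted p = 0.0899).

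In MKN1 13.3% of all 19815 genes tested were lower, and the median log2FC of the 8 genes was -0.36. The replicate number as a block added CAD (-0.17, adjusted p = 0.00873) and a rise of DUT (0.19, adjusted p = 0.0186). Without replicate 1, 3 genes were called, without replicate 2, 6 (TK1 added), and without replicate 3, 1 (TYMS). A fit of the compared groups alone called 1. Of the called genes 52.2% were lower, and 35.2% with scaling by library size alone.

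In Hs746T no counted member passed in any of 12 treatment comparisons. Of 96 tests there, edgeR's quasi-likelihood test passed 0, 2 had an unadjusted p below 0.05, and DESeq2 called 0. RRM2 was at 312, 350 and 331 CPM untreated and at 276, 336 and 337 CPM after 24 h of afatinib (log2FC -0.07 ± 0.09, adjusted p = 1.0). TK1 was at 338, 376 and 398 CPM untreated and at 304, 364 and 481 CPM with afatinib. The groups overlapped for all 8 genes, whose log2FC lay between -0.07 and 0.04. Both unadjusted values were for DUT at 4 h, which was at 132.5, 138 and 140.1 CPM untreated and 165, 175 and 150 CPM with afatinib (log2FC 0.29, unadjusted p = 0.0254, adjusted p = 0.681). None of the 18667 genes tested in Hs746T passed in any of the 12 treatment comparisons (0.0%).

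**Figure D3:**
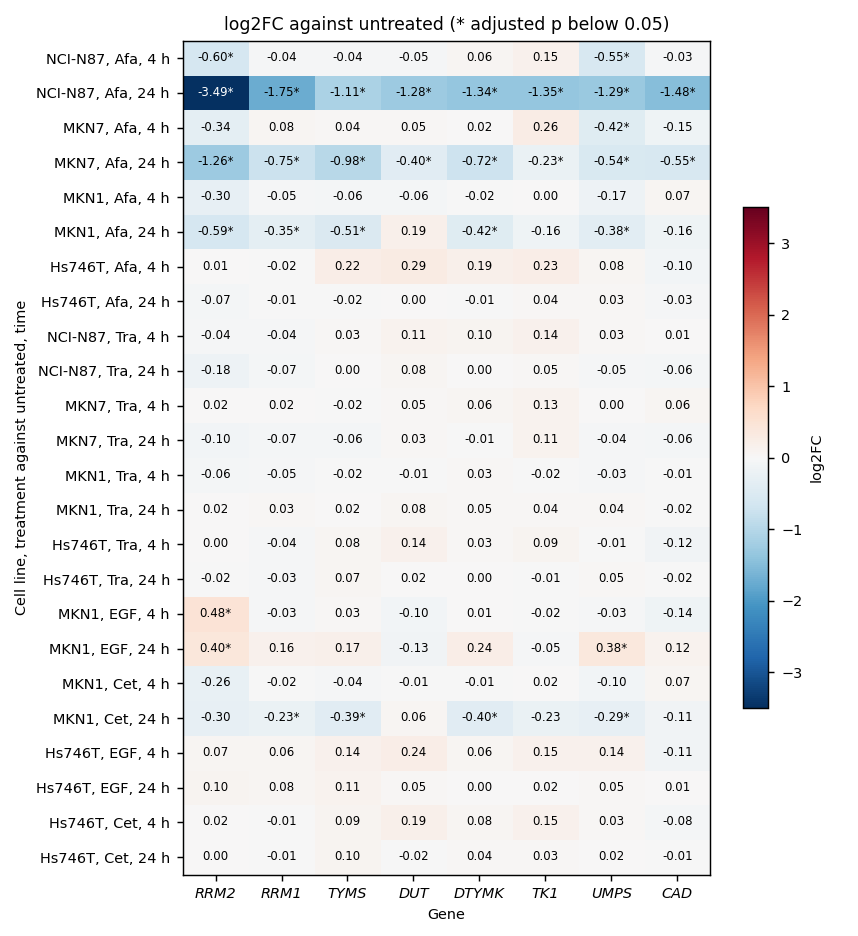
log2FC against untreated cells of the 8 counted genes (columns) for afatinib and trastuzumab in the 4 lines and for EGF and cetuximab in MKN1 and Hs746T, at 4 h and 24 h (rows), with the colour running from blue for lower to red for higher and an asterisk where the adjusted p was below 0.05. The row of NCI-N87 with afatinib at 24 h is the darkest blue (RRM2 -3.49), and no trastuzumab or Hs746T row holds an asterisk.

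The differences between lines in the response at 24 h were tested directly. Between NCI-N87 and MKN7, 7 of the 8 genes fell more in NCI-N87, while 12.7% of all 22832 genes did. The exception was TYMS (difference -0.10, adjusted p = 0.764, 95% interval -0.44 to 0.24), so a difference of that size in either direction could not be told apart from none. RRM2 differed by -2.20 (adjusted p = 3.23e-18). DTYMK was the weakest, at -0.59 (adjusted p = 0.0361), and missed the threshold without each of the replicates (adjusted p = 0.14, 0.0617 and 0.242 without replicates 1, 2 and 3). RRM1 (-0.97) missed it without replicate 3 (-0.84, adjusted p = 0.0547).

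All 8 fell more in NCI-N87 than in MKN1, where 15.9% of all genes did. TYMS, at -0.59 (adjusted p = 0.00559), missed the threshold without replicate 2 (-0.52, adjusted p = 0.116). Against Hs746T, 8 genes fell more in NCI-N87 (19.1% of all genes), 6 in MKN7 (10.5%) and 1 in MKN1 (2.4%), which was UMPS. For MKN7 the count was 4 without replicate 2 and 3 without replicate 3 (RRM2, TYMS and UMPS), and UMPS in MKN1 was lost without replicate 2, without replicate 3, in a fit of the compared groups, with no filter and with scaling by library size alone. A replicate block called 7 in MKN7, with DUT added (-0.40, adjusted p = 0.0149), and 5 in MKN1, with DTYMK, RRM1, RRM2 and TYMS added. These comparisons share the libraries of a line and are not independent of each other. Between MKN7 and MKN1, RRM2 (-0.69, adjusted p = 0.00601) and DUT (-0.61, adjusted p = 0.0404) fell more in MKN7, against 3.94% of all genes. Neither passed without replicate 1 or without replicate 2, and RRM2 alone passed without replicate 3. A replicate block instead called 5, adding CAD, RRM1 and TYMS.

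At 4 h, afatinib had moved few of these genes. In NCI-N87, RRM2 went from 326, 364 and 398 CPM to 215, 230 and 270 CPM (log2FC -0.60 ± 0.15, adjusted p = 0.00573), and UMPS from 112, 118 and 131 CPM to 80.7, 78.2 and 86.2 CPM (log2FC -0.55 ± 0.12, adjusted p = 0.00144). Both were without overlap and were the only 2 that passed, while 9.07% of all genes were lower. RRM2 missed the threshold without replicate 2 (-0.58, adjusted p = 0.153), leaving 1. CAD, which fell at 24 h, was at 181, 190 and 201 CPM untreated and 175, 191 and 192 CPM with afatinib at 4 h.

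In MKN7 at 4 h, UMPS alone passed, from 88.7, 84.1 and 86.7 CPM to 65.8, 63.1 and 69.8 CPM (log2FC -0.42 ± 0.07, adjusted p = 0.000147), while 12.0% of all genes were lower. RRM2 was at 355, 392 and 339 CPM untreated and 286, 316 and 282 CPM with afatinib. TK1 was at 228, 216 and 209 CPM untreated and at 285, 261 and 260 CPM with afatinib, the opposite sign (log2FC 0.26, adjusted p = 0.0535). It passed as higher with DESeq2 (0.27, adjusted p = 0.0408) and with library size scaling (0.34, adjusted p = 0.00792), and missed the threshold when any single replicate was left out. With a replicate block RRM2 (-0.34, adjusted p = 0.0341) and CAD (-0.14, adjusted p = 0.0388) were also lower and TK1 was higher (0.26, adjusted p = 0.0187). Without replicate 3, 2 passed, UMPS and RRM2 (-0.34, adjusted p = 0.0316).

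In MKN1 at 4 h none passed in edgeR's quasi-likelihood test, RRM2 and UMPS had an unadjusted p below 0.05, and DESeq2 called none, while 2.38% of all genes were lower. UMPS passed with a replicate block (-0.17, adjusted p = 0.0426).

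The afatinib effect at 24 h minus that at 4 h was tested within each line. In NCI-N87 all 8 genes fell further at 24 h, against 20.5% of all genes, from -2.88 for RRM2 to -0.74 for UMPS. DUT (-1.06, adjusted p = 0.0699) and UMPS (-0.58, adjusted p = 0.0771) missed the threshold without replicate 1. In MKN7, 6 fell further, against 9.27% of all genes, and these were TYMS, RRM2, RRM1, DTYMK, TK1 and CAD. UMPS was not among them (difference -0.11) and had been lower already at 4 h, and DUT (-0.45) passed with a replicate block (adjusted p = 0.0151). Without replicate 1, CAD, DTYMK and TK1 were lost and 3 were called, and without replicate 2 CAD and RRM2 were lost. In MKN1 the count was 0 of 8 by edgeR's quasi-likelihood test, against 1.42% of all genes, with 4 at an unadjusted p below 0.05 and 0 by DESeq2. The replicate block called 4 there (CAD, DTYMK, RRM1 and TYMS), and without replicate 2 RRM1 and DTYMK passed.

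**Figure D4:**
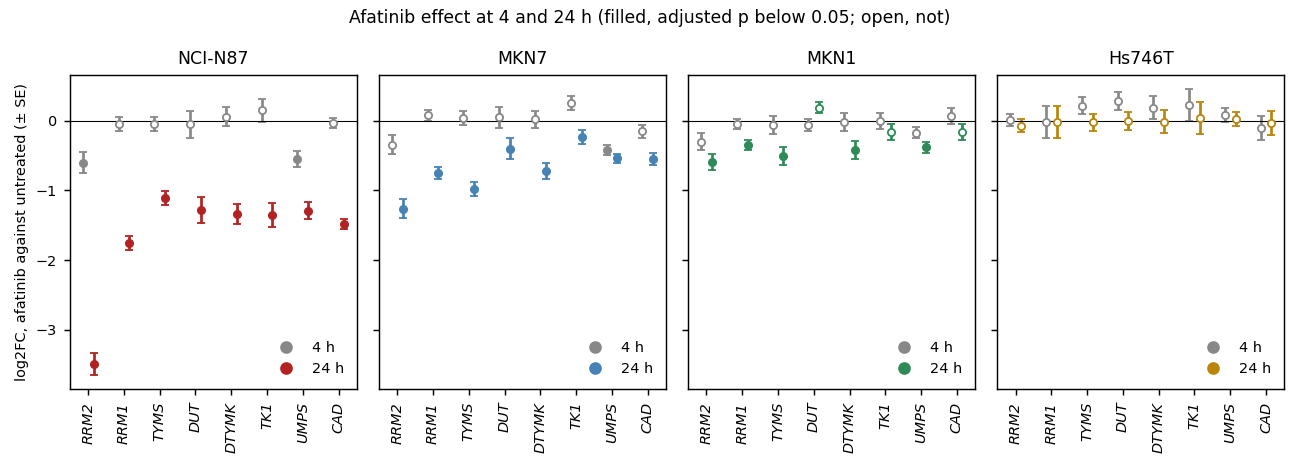
log2FC of afatinib against untreated cells at 4 h (grey) and 24 h (coloured) for the 8 counted genes, 1 panel per line, with bars of 1 SE on either side and filled points where the adjusted p was below 0.05. In NCI-N87 all 24 h points lie below the 4 h points (RRM2 at -0.60 and -3.49), whereas UMPS in MKN7 is already at -0.42 at 4 h.

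The small subunit of ribonucleotide reductase fell by more than the large one in NCI-N87 libraries. In NCI-N87 at 24 h the ratio of RRM2 to RRM1, each per kilobase of exon, was 2.57 ± 0.267 in untreated cells and 0.765 ± 0.0549 with afatinib (mean ± SD, n = 3). At 4 h it was 2.35 ± 0.172 and 1.6 ± 0.142. On the log2 scale the ratio changed by -1.75 at 24 h and by -0.56 at 4 h, and its groups did not overlap at either time. In MKN7 it changed by -0.53 at 24 h and -0.42 at 4 h, also without overlap. In MKN1 it changed by -0.25 at 4 h without overlap and by -0.23 at 24 h with overlap. An exact permutation test, two-sided, gave p = 0.1 for each of the 5 without overlap, the smallest that 3 libraries against 3 allow, and p = 0.2 for MKN1 at 24 h. In Hs746T the ratio changed by 0.04 and -0.07 at the 2 times (exact p = 0.6 and 0.5). Within pairs of libraries of the same replicate number the ratio was lower with afatinib in 3 of 3 pairs in NCI-N87, MKN7 and MKN1 at both times and in Hs746T at 24 h (-0.11, -0.05 and -0.07), and in 1 of 3 in Hs746T at 4 h. A paired exact permutation test cannot go below p = 0.25 with 3 pairs. Replicate 1 of Hs746T held the lowest ratio there, which is where RRM1 was high.

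**Figure D5:**
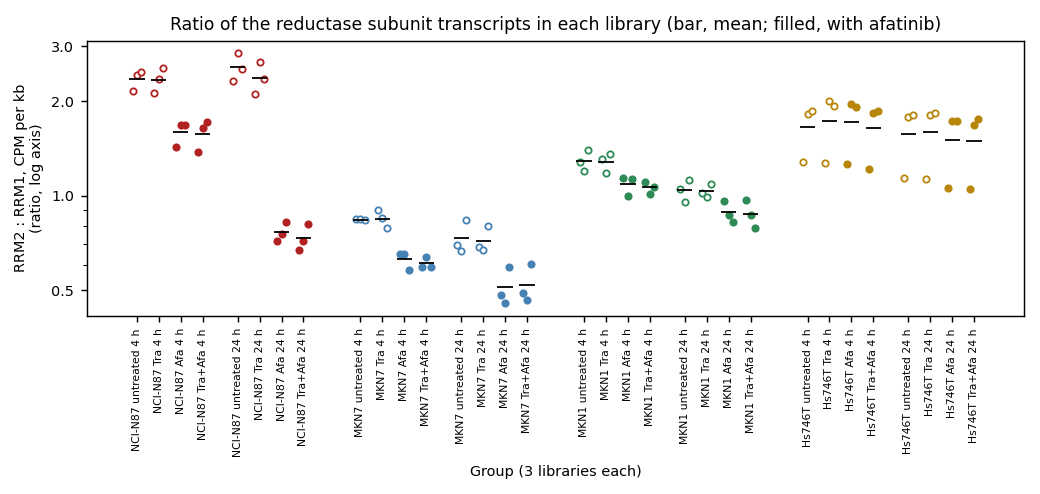
Ratio of RRM2 to RRM1, each in CPM per kilobase of exon, in every library of the untreated and trastuzumab groups (open) and the afatinib and combination groups (filled) on a log axis, with a bar at the mean of 3 and the EGF and cetuximab groups left out. The afatinib libraries of NCI-N87 lie below the untreated ones at 4 h (1.6 against 2.35 on average) and further below at 24 h (0.765 against 2.57).

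Trastuzumab alone moved none of the genes past the threshold. Over 4 lines, 2 times and 8 genes, edgeR's quasi-likelihood test passed 0 of 64 tests, with 0 at an unadjusted p below 0.05 and 0 by DESeq2. Of all genes 0.0% were called in each of these 8 comparisons. In NCI-N87, RRM2 was at 247, 328 and 333 CPM after 24 h of trastuzumab, overlapping the untreated 288 to 379 CPM (log2FC -0.18 ± 0.15, adjusted p = 1.0). Adding trastuzumab to afatinib gave 0 of 64 against afatinib alone, again with 0 unadjusted and 0 by DESeq2. In each of these 8 comparisons 0 of all genes tested were called as well. RRM2 with the combination was at 25, 26.5 and 33.5 CPM, within the range of afatinib alone or just under it.

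Against untreated cells the combination at 24 h lowered 8 of the genes in NCI-N87, 7 in MKN7 and 6 in MKN1, against 32.0%, 25.0% and 14.1% of all genes in these lines. In MKN1 3 of them (DTYMK, TYMS and UMPS) were left without replicate 3. The 1 not called in MKN7 was TK1 (log2FC -0.22, adjusted p = 0.0539, and 0.0244 with a replicate block), CAD was added in MKN1 by the block (-0.13, adjusted p = 0.0359), and TK1 was called in MKN1 (log2FC -0.33, adjusted p = 0.0494). These contrasts share their untreated libraries with those of afatinib alone.

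EGF raised 1 of the 8 genes at 4 h and 2 at 24 h in MKN1, and these genes were lower there with afatinib at 24 h. RRM2 was at 416, 365 and 445 CPM in untreated cells at 4 h and at 578, 530 and 591 CPM with EGF (log2FC 0.48 ± 0.12, adjusted p = 0.0111). It was the only 1 of the 8 that passed, while 4.37% of all genes were higher, and it missed the threshold without replicate 1 (0.48, adjusted p = 0.256). The ratio of RRM2 to RRM1 was 1.84 ± 0.089 with EGF and 1.29 ± 0.1 without.

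At 24 h, RRM2 was at 375, 351 and 350 CPM with EGF (log2FC 0.40 ± 0.12, adjusted p = 0.0117), and UMPS rose from 72.7, 79.8 and 85.7 CPM to 97.5, 108 and 100 CPM (log2FC 0.38 ± 0.08, adjusted p = 0.000192). Of all genes 17.3% were higher, and the 2 of 8 members called lie near that share. UMPS was called alone without replicate 1 (RRM2 0.38, adjusted p = 0.162) or replicate 2 (RRM2 0.33, adjusted p = 0.0661). Scaling by library size alone moved the median of all genes by -0.20 and the lower share of the called genes from 51.6% to 79.5%. Under it RRM2 was at 0.20 (adjusted p = 0.191) and DUT was lower (-0.33, adjusted p = 0.00225). The replicate block added DTYMK (0.23, adjusted p = 0.0223).

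Cetuximab alone lowered 4 genes in MKN1 at 24 h by small amounts, against 5.9% of all genes. UMPS was at 66.1, 66.7 and 64.4 CPM (log2FC -0.29, adjusted p = 0.0113), RRM1 at 186, 185 and 168 CPM (log2FC -0.23, adjusted p = 0.0423), DTYMK at 67.1, 60.6 and 63.2 CPM (log2FC -0.40, adjusted p = 0.0439) and TYMS at 38.4, 34.2 and 32.8 CPM (log2FC -0.39, adjusted p = 0.0453). Every one of these libraries lay below the 3 untreated libraries of its gene. The calls were unstable. Without replicate 1, 1 gene was called, without replicate 2, 2, and without replicate 3 none (UMPS -0.23, adjusted p = 0.321). Scaling by library size alone called none. A replicate block called 5, with RRM2 added (-0.29, adjusted p = 0.0326).

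At 4 h cetuximab alone passed none by edgeR's quasi-likelihood test, 1 had an unadjusted p below 0.05 (RRM2) and DESeq2 called none, against 1.15% of all genes lower. EGF with cetuximab did not differ detectably from EGF alone in these genes. Of 16 tests at the 2 times 0 passed, 1 had an unadjusted p below 0.05 and DESeq2 called 0. Among all 19815 genes, 125 were lower and 16 higher at 4 h, and 85 were lower and 42 higher at 24 h. The unadjusted value was for RRM2 at 4 h, at 498, 420 and 499 CPM with both agents (log2FC -0.26, unadjusted p = 0.0417, adjusted p = 0.698). Against untreated cells, EGF with cetuximab raised UMPS at 24 h (log2FC 0.28, adjusted p = 0.00828), against 9.14% of all genes, and the replicate block also called CAD (0.13, adjusted p = 0.0471) and TYMS (0.19, adjusted p = 0.0493). UMPS was lost without replicate 1, in a fit of the compared groups and with scaling by library size alone.

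Untreated cells also differed between the 2 times in some lines. In MKN1, RRM2 (log2FC -0.59, adjusted p = 0.000354), UMPS (-0.39, adjusted p = 0.000129), TYMS (-0.33, adjusted p = 0.0487) and RRM1 (-0.28, adjusted p = 0.004) were lower at 24 h than at 4 h, against 16.4% of all genes. RRM1 (-0.26, adjusted p = 0.139) and TYMS (-0.28, adjusted p = 0.379) were lost without replicate 1, leaving 2, and TYMS without replicate 2 (-0.34, adjusted p = 0.0573). In MKN7 UMPS was lower (-0.26, adjusted p = 0.0174), against 9.39% of all genes, and was lost without replicate 1 (-0.20, adjusted p = 0.277) or replicate 2 (-0.24, adjusted p = 0.147), while without replicate 3 RRM2 was also called (-0.35, adjusted p = 0.028). In NCI-N87 edgeR's quasi-likelihood test called 0 (1 at an unadjusted p below 0.05, 0 by DESeq2, 0.199% of all genes lower). In Hs746T it called 0 as well (0 unadjusted, 0 by DESeq2, 0.686% of all genes higher), and the replicate block called CAD (0.28, adjusted p = 0.00201).

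Most other genes of the pathway lists were also lower after 24 h of afatinib in NCI-N87. Of 8 genes of pyrimidine synthesis, which include CAD and UMPS, 6 were tested and all 6 were lower. NME1 and NME2 held at most 5 and 2 counts and were not tested. CTPS1, which makes CTP from UTP, was at 131 ± 2.33 CPM untreated and 18.4 ± 2.41 CPM with afatinib (log2FC -2.87, adjusted p = 1.12e-15). It was lower already at 4 h (-0.71, adjusted p = 3.72e-06), and lower at 24 h in MKN7 (-1.03, adjusted p = 5.46e-08) and MKN1 (-0.79, adjusted p = 8.15e-07). Of 17 tested genes of deoxynucleotide supply, 6 of them members, 12 were lower and none higher. Among the 11 that are not members 6 were lower.

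The folate cycle feeds TYMS and purine synthesis with one-carbon units. In NCI-N87 9 of its 10 genes were lower and 1 was higher. The reduced folate carrier SLC19A1 fell to 12 ± 2.11 CPM from 54.6 ± 7 (log2FC -2.22) and MTHFD2 had a log2FC of -1.46. Purine synthesis had 12 of 13 genes lower, with PAICS at -2.05, PFAS at -1.94 and PRPS1 at -1.80, and 1 higher, ADSSL1 (0.81).

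Among 15 genes of salvage and breakdown 10 were lower, 3 higher and 2 not called. The nucleoside transporter SLC29A1 had a log2FC of -3.05, the ectonucleotidase NT5E of -2.91 and the uridine phosphorylase UPP1 of -2.31. DPYD, the first enzyme of pyrimidine breakdown (0.81), NT5C2 (0.63) and TYMP (0.39) were higher. All 6 genes of the MCM helicase, which unwinds DNA at replication forks, were lower with a median log2FC of -2.63, led by MCM6 (-2.94), MCM5 (-2.85) and MCM4 (-2.75). So DNA replication genes outside nucleotide synthesis were lower in the same libraries, and their part in the result was not tested. For all genes tested the lower share was 31.0%, and the lists too were chosen with earlier results of these data known.

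In MKN7 at 24 h the counts of lower and higher genes were 5 and 0 of 6 for pyrimidine synthesis, 11 and 2 of the deoxynucleotide supply list, 8 and 1 for the folate cycle, 11 and 1 for purine synthesis, 9 and 2 for salvage and 6 and 0 for the MCM helicase. In MKN1 they were 4 and 0, 6 and 1, 4 and 2, 10 and 0, 3 and 1, and 5 and 0 in the same order. MCM5 (-0.32) and MCM6 (-0.40) passed in MKN1, and both were lost without replicate 3 (MCM5 -0.15, adjusted p = 0.5, and MCM6 -0.23, adjusted p = 0.438). In Hs746T none of these genes passed. With scaling by library size alone the deoxynucleotide supply list had 7 lower and 2 higher in MKN7 and 5 and 4 in MKN1, where its median moved from -0.08 to 0.0. Under it salvage in MKN7 had 5 lower in place of 9, and the MCM helicase in MKN1 3 in place of 5.

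At 4 h the lists moved unevenly. In NCI-N87, 3 of 6 genes of pyrimidine synthesis, 6 of 13 of purine synthesis and 6 of 15 of salvage were lower, against 9.07% of all genes. Of the 17 deoxynucleotide supply genes 1 was lower, of the 10 folate cycle genes 1 was lower and 2 were higher, and none of the 6 MCM genes passed. MCM6 stood at -0.12 (adjusted p = 0.571), MCM5 at 0.09 and MCM4 at -0.13, while CTPS1, RRM2 and UMPS had passed. MKN7 had 3 lower in pyrimidine synthesis, 7 in purine synthesis, 4 in salvage, 1 in deoxynucleotide supply and 3 (with 1 higher) in the folate cycle, against 12.0% of all genes, and likewise none of the MCM genes. EGF at 24 h in MKN1 raised 10 of the purine synthesis genes, 9 of the salvage genes, 6 of the folate cycle and 4 of pyrimidine synthesis, while 0, 1, 3 and 1 were lower and 17.3% of all genes were higher. Of the 17 genes of deoxynucleotide supply 3 were higher and 2 lower (median -0.04). With scaling by library size alone 8, 6, 2 and 2 were higher and 1, 4, 3 and 1 lower, in the same order, and 1 was higher and 7 lower for deoxynucleotide supply. Of the 6 MCM genes 4 were higher and 0 lower with EGF, and 1 and 0 with scaling by library size alone. CTPS1 stood at 0.74 (adjusted p = 6.52e-07) with EGF and NT5E at 2.50 (adjusted p = 1.15e-07). Cetuximab at 24 h lowered 6 of the purine synthesis, 5 of the folate cycle and 3 of the pyrimidine synthesis genes, and 4, 4 and 1 of them with scaling by library size alone. It lowered 4 genes of deoxynucleotide supply, 3 of salvage and 1 of the MCM helicase, and 1, 2 and 1 under that scaling. In salvage 1 gene was higher. Under that scaling 2 were higher in deoxynucleotide supply, 1 in salvage and 1 in the folate cycle. Over all 19815 genes 1169 were lower and 971 higher with cetuximab.

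The genes whose pattern was most like each member were found from the correlation of condition means, each line centred on its own mean, over 44 conditions and 9859 genes, with no test. UMPS was closest to NOP2 (r = 0.991), NOL11 (0.99) and NOP56 (0.989), genes of ribosome assembly. RRM1 was closest to PSMD1 (0.989), CDC45 (0.989) and PKMYT1 (0.989), RRM2 to VRK1 (0.986), TCOF1 (0.985) and MCM8 (0.984), and TYMS to HMGB1 (0.984), H2AFY (0.98) and BUB3 (0.98). DTYMK was closest to H2AFZ (0.986), LRR1 (0.986) and PSMA7 (0.986). These 5 hardly changed when the 8 conditions of NCI-N87 were left out, with r of 0.95 or more over the other 36.

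For TK1, CAD and DUT the likeness rested more on NCI-N87. TK1 was closest to WDR34 (0.98, and 0.847 without NCI-N87), CAD to WDHD1 (0.969 and 0.895), and DUT to G6PC3 (0.954 and 0.793). Among the members themselves r lay between 0.638 and 0.971 over the 44 conditions. Without NCI-N87, TYMS and RRM1 were at 0.977 and TYMS and DTYMK at 0.953, whereas TK1 and CAD were at -0.094 and DUT and CAD at 0.0139. Conditions of 1 line share their culture and sequencing, and the NCI-N87 afatinib conditions are far from the others, so these values describe the 44 means only.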

How the data were processed

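Poly(A) RNA was sequenced with a directional kit. Per the labels, the authors trimmed reads with Trim Galore and aligned them with STAR to hg38, and the deposited values are raw counts per Ensembl identifier. The versions, the counting annotation and the strand setting are not given in the sources used here. Gene symbols, positions and exon lengths were taken from GENCODE v29. The 8404 identifiers not in it held 0.0422% of the counts and stayed in the fits. 37 mitochondrial identifiers held 0 counts.

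Libraries were grouped by line, treatment and time from their labels. Within each line, edgeR 4.0.16 (R 4.3.3) was fitted to all libraries with TMM scaling, filterByExpr, a robust quasi-likelihood fit and its F-test. Contrasts between lines used all libraries of the series. P-values were adjusted by Benjamini-Hochberg over all genes of a contrast. Alternatives were DESeq2 1.42.0, a fit of the compared groups alone, library size scaling, dropping the filter, a stricter one of 10 counts in each library, a replicate block, and leaving out each replicate. Deviations from group means under the same replicate number correlated above 0.1 in all 3 pairs of every within-line comparison except Tra+Afa against Afa in MKN1 at 24 h (lowest r 0.0883), so the numbers were taken to pair the libraries elsewhere. On simulated counts for the NCI-N87 afatinib comparison at 24 h (17872 genes), 46% of 100 genes changed by 0.5 on the log2 scale and 88% of 100 changed by 1 were called. Only 200 genes were changed there, whereas the real comparison called 5914 lower and 6008 higher of 19078. These rates therefore need not hold for the real comparison. The members and gene lists were chosen with earlier results of these data known, and the text names all members, the 3 largest passing rises and falls of each list in NCI-N87 after 24 h of afatinib, and the 3 genes most like each member, except for a few genes that are not reported here. Counts for Tra+Afa, for EGF+Cet against untreated and against Hs746T under the other settings, the lists under library size scaling and without the members, and the paired ratios were added after seeing the data. Ratios were compared by exact permutation tests (scipy 1.17.1). Promoter windows came from RefSeq.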

Additional observations from a re-analysis of the deposited data

Results flagged for a closer look

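Effects of afatinib that differed between lines or times, each tested in edgeR's quasi-likelihood fit, are given here as differences in log2FC. NCI-N87 minus MKN7 at 24 h was -2.20 for RRM2, -1.09 for TK1, -0.97 for RRM1, -0.91 for CAD, -0.85 for DUT, -0.73 for UMPS and -0.59 for DTYMK. NCI-N87 minus MKN1 was -2.88 for RRM2, -1.45 for DUT, -1.38 for RRM1, -1.30 for CAD, -1.18 for TK1, -0.91 for DTYMK, -0.90 for UMPS and -0.59 for TYMS. MKN7 minus MKN1 was -0.69 for RRM2 and -0.61 for DUT. Against Hs746T, 8 genes differed for NCI-N87, 6 for MKN7 and 1 for MKN1.

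The effect at 24 h minus that at 4 h in NCI-N87 was -2.88 for RRM2, -1.71 for RRM1, -1.50 for TK1, -1.45 for CAD, -1.40 for DTYMK, -1.23 for DUT, -1.07 for TYMS and -0.74 for UMPS. In MKN7 it was -1.03 for TYMS, -0.93 for RRM2, -0.83 for RRM1, -0.75 for DTYMK, -0.49 for TK1 and -0.41 for CAD. Groups held 3 libraries, too few to test single libraries as outliers.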

How the results depend on the processing

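Over 101 called values of the members, 875 alternative values kept their direction, 784 on the same side of the threshold and 91 not, and 0 reversed. For 259 values that had not passed, 37 of 2317 alternative values did. The 8 calls in NCI-N87 and the 8 in MKN7 with afatinib at 24 h stayed within 1.5 times in each alternative. In MKN1 with afatinib at 24 h (5 called) the count was 1 in a fit of the compared groups, and 1 to 6 without a replicate. In MKN7 at 4 h (1 called) it was 3 in the compared groups, 2 with DESeq2, library size scaling, no filter or at least 10 counts, 4 with the replicate block and 1 to 2 without a replicate. NCI-N87 at 4 h (2 called) gave 1 to 2 without a replicate. The block gave 1 in MKN1 at 4 h, where 0 were called. With EGF in MKN1, leaving out a replicate gave 1 to 2 at 24 h and 0 to 1 at 4 h. With cetuximab at 24 h (4 called) it was 1 in the compared groups or with no filter, 0 with library size scaling and 0 to 2 without a replicate. Between untreated times, MKN7 (1 called) gave 0 in the compared groups, with library size scaling or with no filter and 0 to 2 without a replicate, MKN1 (4 called) gave 2 to 4 without a replicate, and Hs746T (0 called) gave 1 with the block. MKN7 minus MKN1 (2 called) gave 0 in the compared groups, 1 with no filter, 5 with the block and 0 to 1 without a replicate. For 24 h minus 4 h, MKN7 (6 called) gave 3 to 7 without a replicate, and MKN1 (0 called) gave 4 with the block and 0 to 2 without a replicate. The cause was not tested. The block was not used for untreated levels between lines, and changed no other call of a member in the comparisons for which the report gives counts.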
